A study of Saccharomyces cerevisiae with 6 samples.

Results

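The genes described here exceeded their wild-type level at least 2-fold in *ccr4Δ* yeast in both log phase and stationary phase. They were chosen by exactly those ratios. A gene had to read well above background in both phases on the arrays of wild-type and of *ccr4Δ*, and its log2 ratio of *ccr4Δ* over wild-type had to reach 1 in each phase. Of 6225 systematic names on the array, 5755 could be measured on those 4 arrays, and 99 of them (1.72%) passed both limits. The limit was passed by 321 genes (5.57%) in log phase and by 694 genes (11.5%) in stationary phase. The ratios of *ccr4Δ* over wild-type are a description of how the genes were chosen and support nothing further.

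Gene expression was measured on 1-colour Agilent arrays in 3 strains of *Saccharomyces cerevisiae* (wild-type, *ccr4Δ*, and the double deletion *ccr4Δ pbp1Δ*), grown in YPD and collected in log phase or in stationary phase, with 1 array per condition. No replicate stands behind any ratio, so no p-value is given. The strain list of the study gives the W303-type markers *ade2*, *trp1*, *can1*, *leu2*, *his3* and *ura3* for its strains. It lists wild-type as *MATα* with an *ADE2* copy under the *HO* promoter, and *ccr4Δ* as *MATa* with *CCR4* replaced by *CgLEU2*. The strain of the *ccr4Δ pbp1Δ* arrays and its marker for *pbp1Δ* were not identified in the sources used here, nor was it stated whether both phases of a strain came from 1 culture.

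Ccr4 is a deadenylase: within the Ccr4-Not complex it shortens the poly(A) tail of mRNAs in the cytoplasm. Loss of the tail is usually followed by decapping and decay of the mRNA, so Ccr4 is known mainly as a negative regulator of mRNA abundance. Pbp1, the yeast ataxin-2 ortholog, binds the poly(A)-binding protein Pab1 and is found in stress granules.

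Levels are given as a percentage of the signal at the 75th percentile of the same array, so that a level of 100% is the brightness below which 3 in 4 spots lie. Between 92.7% and 98.4% of probes were well above background. All 99 genes were well above background on all 6 arrays, and the pooled SD of a spot's ratio between arrays was 0.157 to 0.231 on the log2 scale. *CCR4* had a level of 24.7% in wild-type in log and 18.3% in stationary phase, and was not well above background on the 4 arrays of the deletion strains. *PBP1* was likewise not well above background on both *ccr4Δ pbp1Δ* arrays. Mating-type genes also separated the strains. The summed level of 7 a-specific genes was 24.3% and 28.8% in wild-type, 1703% and 701% in *ccr4Δ*, and 1407% and 226% in *ccr4Δ pbp1Δ*, in log and stationary phase. That of 4 α-specific genes was 2324% and 72.8% in wild-type, and 35.3% and 18.6% in *ccr4Δ*. Mating type and loss of *CCR4* therefore cannot be told apart in any ratio against wild-type. The wild-type log phase array was alone on its slide, so slide and strain cannot be told apart in log phase either.

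Most of the 99 genes lay close to the limit. In both phases 27 were at least 3-fold higher, 15 at least 4-fold, 4 at least 8-fold and 3 at least 16-fold. The median log2 ratio over the genes was 1.37 in log and 1.64 in stationary phase, beside -0.07 and -0.08 over all genes. The ratio was larger in stationary phase for 59 genes and in log phase for 40, but this order turned with the scaling: it was 31 and 68 with no scaling, and 1 and 98 with *ACT1* as the reference of each array. With the 75th percentile as the reference, the ratios of the phases lay within 1.5-fold of each other for 62 genes. Every single spot passed the limit for 87 genes. The exceptions were *ARP10*, *ATG33*, *CLB4*, *CYT2*, *MDM35*, *MRPL4*, *MRPL6*, *RSM7*, *TEM1*, *TFS1*, YLL065W and YNR077C. The members nearest the limit by their smaller log2 ratio were *TEM1* (1.003), YLL065W (1.004) and *CLB4* (1.006). Just outside stood *NRM1* (0.998), *MRPL32* (0.9955) and *GOR1* (0.992).

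**Figure D1:**
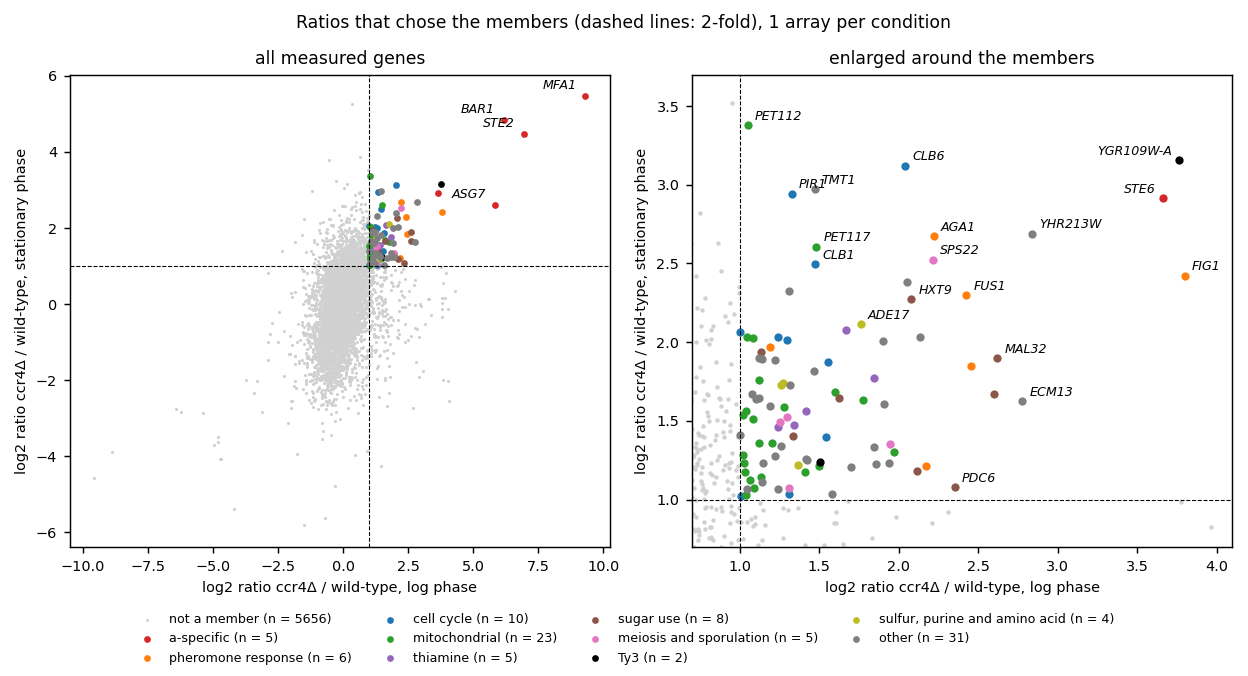
Log2 ratio of *ccr4Δ* over wild-type in log phase (x axis) and stationary phase (y axis), 1 point per gene, with the 99 genes coloured by role, the other genes in grey and the limits as lines; the right panel enlarges the region beside the limits. The a-specific genes *MFA1*, *BAR1* and *STE2* stand farthest out, with *MFA1* at 9.32 and 5.47, and most other genes crowd just above the limit of 1.

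**Figure D2:**
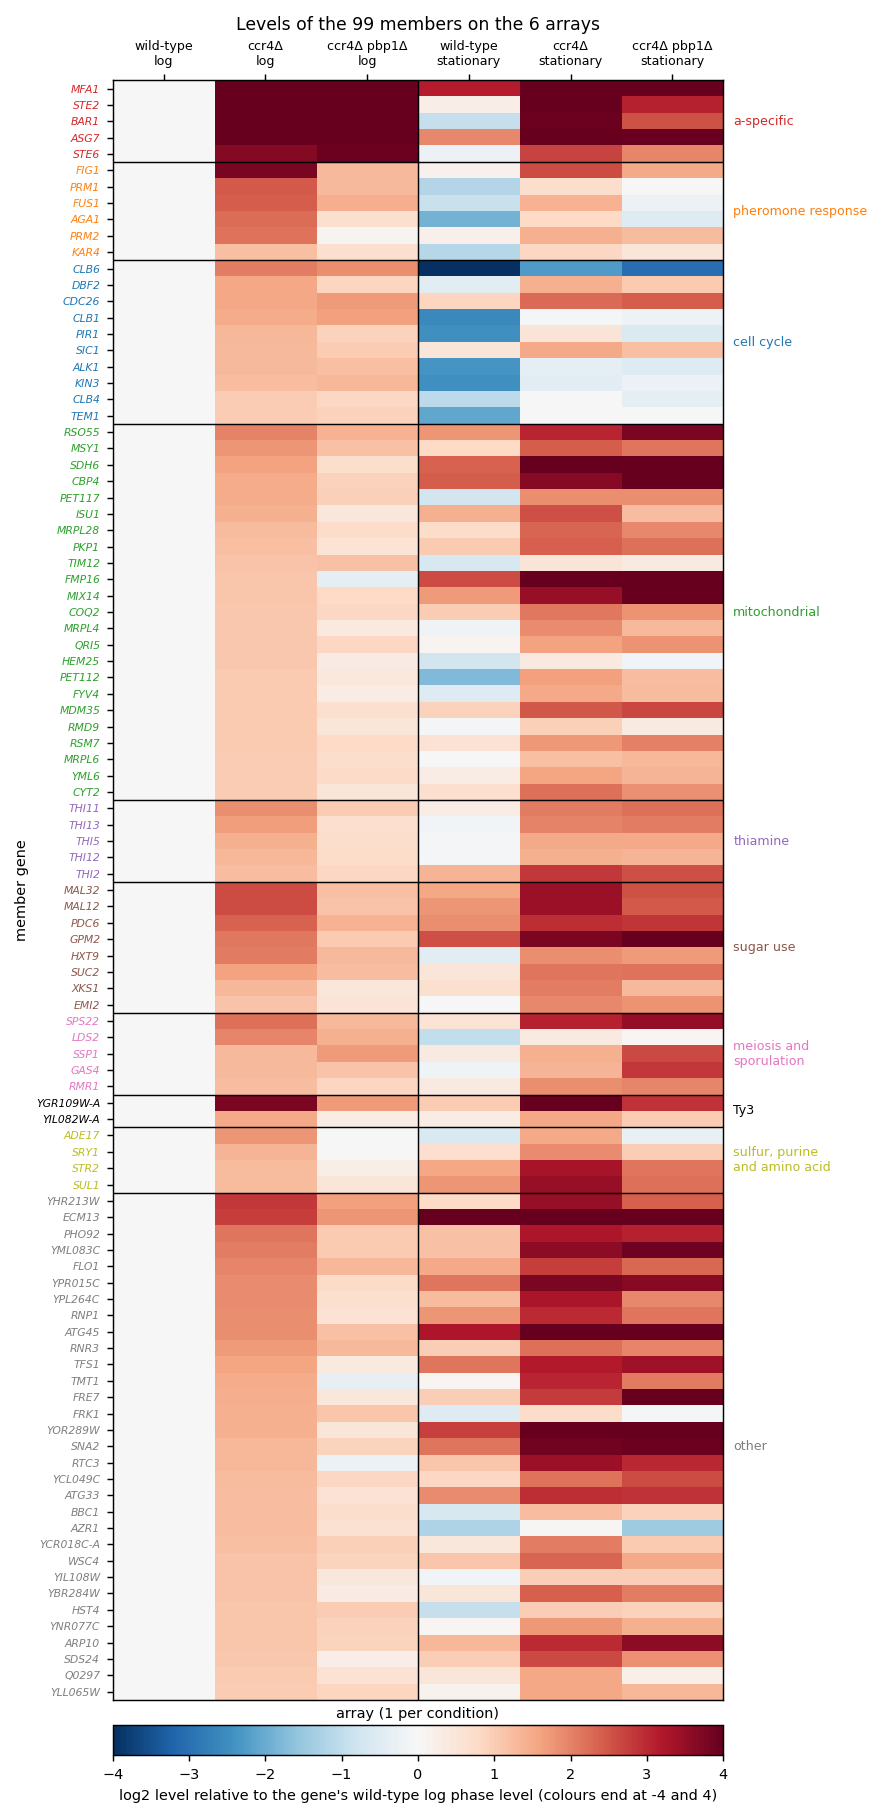
Level of each of the 99 genes (rows, grouped by role) on the 6 arrays (columns), as log2 relative to the same gene on the wild-type log phase array, with colours ending at -4 and 4. In the *ccr4Δ* columns every gene is above wild-type of the same phase, as the rule requires, whereas the *ccr4Δ pbp1Δ* columns differ between groups.

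The set was sorted by known roles into 5 a-specific genes, 6 genes of the pheromone response, 10 of the cell cycle, 23 of mitochondria, 5 of thiamine synthesis, 8 of sugar use, 5 of meiosis and sporulation, 2 of Ty3 elements, 4 of sulfur, purine and amino acid metabolism, and 31 others. The a-specific genes had the highest ratios. In **a** cells these encode what is needed to signal to and sense an α cell. *MFA1*, an a-factor precursor, had levels of 0.792% in wild-type, 506% in *ccr4Δ* and 288% in *ccr4Δ pbp1Δ* in log phase, and of 6.99%, 309.7% and 62.7% in stationary phase. *STE2*, the α-factor receptor, stood at 2.72%, 336% and 335% in log phase and at 3.27%, 72.7% and 23.0% in stationary phase. For both genes the wild-type arrays were the lowest of the 6. *BAR1*, the secreted protease that degrades α-factor, was at 4.03%, 293% and 255% and then at 2.12%, 60.8% and 23.6%. *STE6*, the a-factor exporter, was at 15.5%, 197% and 237% and then at 13.3%, 100.5% and 59.8%. *ASG7*, which acts on signalling after mating, was at 0.579%, 33.3% and 29.4% and then at 2.20%, 13.4% and 8.95%. The strain list gives wild-type and *ccr4Δ* opposite mating types, and these 5 genes are all 5 a-specific genes that could be measured. *AGA2* and *MFA2* were too dim in wild-type to be members.

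In log phase the 5 a-specific genes of *ccr4Δ pbp1Δ* stayed between 1.76-fold below and 1.20-fold above *ccr4Δ*. In stationary phase all 5 were below *ccr4Δ*, by 4.94-fold for *MFA1*, 3.16-fold for *STE2*, 2.58-fold for *BAR1*, 1.68-fold for *STE6* and 1.498-fold for *ASG7*. Against wild-type the genes were higher in *ccr4Δ pbp1Δ* in both phases under every scaling tried.

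The pheromone response genes are induced through the transcription factor Ste12 in cells of either mating type. *FIG1*, needed for calcium influx during mating, had levels of 0.643% in wild-type, 8.96% in *ccr4Δ* and 1.58% in *ccr4Δ pbp1Δ* in log phase, and of 0.727%, 3.90% and 1.83% in stationary phase. *AGA1*, the anchor of a-agglutinin, was at 29.5%, 137% and 46.0% in log phase and at 8.04%, 51.3% and 20.5% in stationary phase. *FUS1*, which acts in cell fusion, was at 19.0%, 102% and 52.0%, then at 10.1%, 49.9% and 16.2%. In all 3 genes the array with both deletions lay between the other arrays of its phase. The same held in both phases for 62 of the 99 genes and 24.3% of all genes, and the choice of the genes favours it. *PRM1*, needed for plasma membrane fusion, was at 2.15%, 11.8% and 5.25%, then at 0.964%, 3.46% and 2.19%. *PRM2* was at 1.83%, 8.26% and 1.98% in log phase, where *ccr4Δ pbp1Δ* was 1.08-fold over wild-type, and at 2.11%, 4.90% and 4.36% in stationary phase. *KAR4*, a transcription factor for karyogamy genes, was at 64.7%, 148% and 101%, then at 29.1%, 114% and 91.3%. Of the whole list of 30 measured pheromone response genes, 10 passed 2-fold in log and 7 in stationary phase, with list medians of 0.56 and 0.35 on the log2 scale. The difference in mating type applies to these genes too, and its part in their ratios was not tested.

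A further 10 genes act in the cell cycle. In bulk cultures more cells in a stage and more mRNA per cell cannot be told apart. *CLB6* encodes an S phase cyclin and *CLB1* and *CLB4* encode mitotic cyclins. *CLB6* had levels of 15.1% in wild-type, 62.3% in *ccr4Δ* and 54.6% in *ccr4Δ pbp1Δ* in log phase and of 0.36%, 3.13% and 1.82% in stationary phase. *CLB1* was at 41.5%, 115% and 129%, then at 6.999%, 39.4% and 35.8%. For both genes each stationary phase level was below the log phase level of the same strain, and the log2 ratio of *ccr4Δ* to wild-type was larger in stationary phase (3.12 against 2.04 for *CLB6* and 2.49 against 1.47 for *CLB1*). With *ACT1* as the reference the order turned, to 1.80 against 2.38 and 1.17 against 1.81. With normexp background correction the ratios of *CLB6*, which was dim in wild-type in stationary phase, were nearly equal, at 2.10 against 1.99. Those of *CLB1* were then 2.41 against 1.45. *CLB4* was at 22.4%, 44.9% and 39.3%, then at 10.9%, 22.1% and 16.9%. *DBF2* and *TEM1* belong to the mitotic exit network. *TEM1* was at 33.5%, 67.2% and 63.9% in log phase, and at 8.02%, 33.5% and 33.3% in stationary phase. *DBF2* was at 46.3%, 136% and 84.0%, then at 33.6%, 123% and 94.8%. *SIC1*, which encodes an inhibitor of Cdk1 with B-type cyclins, was at 88.6%, 219.6% and 181%, then at 123%, 251% and 203%. The other measured B-type cyclin genes did not pass both limits: *CLB2* was 1.95-fold and 4.52-fold over wild-type in *ccr4Δ*, *CLB3* 1.11-fold and 1.01-fold, and *CLB5* 1.20-fold and 0.682-fold. *ALK1*, a haspin kinase gene, was at 68.7%, 169% and 159%, then at 13.3%, 53.6% and 48.1%, and *KIN3*, a kinase gene of the NIMA family, at 12.5%, 29.6% and 31.7%, then at 2.29%, 9.38% and 10.7%. *PIR1*, a cell wall protein gene of early G1, stood at 451%, 1131% and 854%, and then at 83.0%, 638% and 299%. *CDC26*, a subunit of the anaphase-promoting complex, was at 3.76%, 10.9% and 12.2%, then at 6.87%, 18.1% and 20.1%.

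Of 6 measured B-type cyclin genes 3 were members. Of the 21 measured genes of the *CLB2* cluster, which is transcribed from G2 to mitosis, 5 were members, and the list medians were 0.64 in log and 1.41 in stationary phase, or 0.98 and 0.09 with *ACT1* as the reference. Of 17 M/G1 genes 2 were members, *PIR1* and *SIC1*. None of 20 G1/S genes and none of 10 histone genes was a member. With 1.72% of all measured genes as members, these lists are too short to read anything from that. Of the 20 G1/S genes 3 passed 2-fold in log and 0 in stationary phase, beside 5.57% and 11.5% of all genes. In *ccr4Δ pbp1Δ* the log2 ratio of the cell cycle genes to *ccr4Δ* had a median of -0.14 in log and -0.23 in stationary phase. Over the 99 genes it was -0.61 and -0.27, so in stationary phase the group was close to the whole set. Among the cell cycle genes only *PIR1* was 2-fold lower in either phase. *CLB1* and *CLB2* are close relatives, and cross-hybridization between their probes was not checked.

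The largest group with a shared role was that of mitochondrial proteins, with 23 genes. Roles were assigned to the members only. The share of such genes among all measured genes was therefore not counted, and nothing is read from the size of the group. The group's median log2 ratio to wild-type in *ccr4Δ* was 1.09 in log and 1.36 in stationary phase, so in log phase most of its genes only just passed. *PET112*, a subunit of the mitochondrial glutamyl-tRNA amidotransferase, had levels of 11.7% in wild-type, 24.2% in *ccr4Δ* and 15.7% in *ccr4Δ pbp1Δ* in log phase, and of 3.47%, 36.2% and 27.4% in stationary phase. Its ratio was 2.07-fold in log phase and 10.4-fold in stationary phase, and on this scale the wild-type level was lower in stationary phase and the *ccr4Δ* level higher. *PET117*, for assembly of cytochrome *c* oxidase, showed the same arrangement, with 22.9%, 63.8% and 43.9% in log and 13.7%, 83.4% and 82.8% in stationary phase. *MSY1*, the mitochondrial tyrosyl-tRNA synthetase, was at 14.6%, 49.9% and 33.0%, then at 25.1%, 78.0% and 64.6%. *SDH6*, an assembly factor of succinate dehydrogenase, was at 13.6%, 41.2% and 22.3%, then at 70.3%, 226% and 382%. In *SDH6* the stationary phase array with both deletions was the highest of the 6. The same held for *MIX14*, a protein of the intermembrane space, at 22.9%, 49.8% and 39.9%, then at 75.02%, 254% and 397%, and for *CBP4*, for assembly of the cytochrome *bc*1 complex, at 18.4%, 51.8% and 35.1%, then at 98.0%, 227% and 327%. *ISU1*, the scaffold on which iron-sulfur clusters are built, went the other way, at 193%, 512% and 262% in log and 515%, 1164% and 459% in stationary phase. *TIM12*, for protein import, was nearly equal in both deletion strains at 80.2%, 176% and 179%, then at 51.4%, 113.5% and 104%.

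Other members of the group act in heme, quinone and pyruvate metabolism. *COQ2*, of ubiquinone synthesis, was 2.13-fold and 2.11-fold higher in *ccr4Δ* in log and stationary phase. The ratios were 2.09 and 2.18 for *HEM25*, a mitochondrial glycine carrier, 2.30 and 2.57 for *PKP1*, a kinase of pyruvate dehydrogenase, and 2.02 and 2.90 for *CYT2*, the heme lyase of cytochrome *c*1. On the list of mitochondrial ribosomal proteins *MRPL4*, *MRPL6*, *MRPL28* and *RSM7* were members, out of 65 measured genes. The list was matched by gene symbol and can miss such proteins with other symbols. All 65 were higher in *ccr4Δ* in both phases, but 4 passed 2-fold in log and 46 in stationary phase, with medians of 0.61 and 1.25. With no scaling 63 were higher and 20 passed in stationary phase, and with *ACT1* as the reference 28 were higher and 0 passed there, with a median of -0.071, while 24 passed in log phase. None of 44 respiratory chain genes and none of 131 cytosolic ribosomal protein genes was a member, beside 1.72% of all measured genes. Of 34 genes on the list of mitochondrial translation and assembly factors 2 were members, *CBP4* and *CYT2*. That list is not complete: *PET112*, *PET117*, *MSY1* and *SDH6*, described above with such roles, are members and are not on it. With *ACT1* as the reference of each array, a scaling under which the median of all genes moved to -1.40 in stationary phase, 13 of the 23 mitochondrial genes stayed above wild-type there.

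Of the 5 thiamine genes, 4 belong to the *THI5* family, which makes the pyrimidine ring of thiamine and whose copies are nearly identical, so their values may not be independent. *THI11* had levels of 2.34% in wild-type, 8.41% in *ccr4Δ* and 4.72% in *ccr4Δ pbp1Δ* in log phase, and of 2.90%, 9.90% and 10.7% in stationary phase. *THI5* was at 7.28%, 19.5% and 11.9%, then at 7.01%, 20.7% and 20.9%. *THI12* and *THI13* had ratios of *ccr4Δ* over wild-type of 2.53 and 3.18 in log phase and of 2.78 and 4.22 in stationary phase. In each of the 4 copies *ccr4Δ pbp1Δ* lay between the other strains in log phase, and within 1.08-fold of *ccr4Δ* in stationary phase. The log phase position was shared by 89 of the 99 genes and 57.6% of all genes, and the choice of the genes favours it. *THI2*, an activator of thiamine genes, was at 4.02%, 9.49% and 7.10%, then at 10.4%, 28.6% and 24.0%. Of 16 measured thiamine genes these 5 were members.

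Another 8 genes serve the use of sugars. *HXT9*, a hexose transporter gene nearly identical to *HXT11*, had levels of 5.85% in wild-type, 24.7% in *ccr4Δ* and 14.5% in *ccr4Δ pbp1Δ* in log phase, and of 4.41%, 21.3% and 18.8% in stationary phase. *SUC2*, invertase, was at 52.2%, 161% and 123%, then at 73.7%, 231% and 238%. *MAL32*, a maltase, was at 1.09%, 6.71% and 2.52%, then at 3.17%, 11.8% and 6.40%. Its near-identical copy *MAL12* was at 1.49%, 9.05% and 3.28%, then at 5.03%, 16.01% and 8.21%. Of 6 measured maltose genes these 2 were members. The list medians of *ccr4Δ* over wild-type were 0.94 in log and -0.28 in stationary phase on the log2 scale. Only 2 of the 6 were above wild-type in stationary phase, and *MAL31* was 2.51-fold lower there. *PDC6*, a minor pyruvate decarboxylase, was at 0.887%, 4.53% and 2.30%, then at 3.25%, 6.85% and 6.40%. In log phase *ccr4Δ pbp1Δ* lay between wild-type and *ccr4Δ* in all 8 genes. The same held for 89 of the 99 genes and 57.6% of all genes, and the choice of the genes favours it. *GPM2*, a homolog of phosphoglycerate mutase, was 4.33-fold and 2.27-fold higher in *ccr4Δ*, and *XKS1*, xylulokinase, was 2.52-fold and 2.64-fold higher. Of 23 glucose-repressed genes 11 passed the 2-fold limit in log phase but only *SUC2* was in stationary phase. None of 15 stationary phase genes was a member: 10 passed the limit in log phase, with a median of 1.20, and their median was -0.51 in stationary phase.

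Another 5 genes are known from meiosis and spore formation, although the cells were grown in YPD. *SPS22*, for the spore wall, had levels of 0.811% in wild-type, 3.76% in *ccr4Δ* and 1.98% in *ccr4Δ pbp1Δ* in log phase, and of 1.19%, 6.85% and 9.30% in stationary phase. *GAS4*, a spore wall glucanosyltransferase, was at 0.926%, 2.28% and 2.04%, then at 0.829%, 2.39% and 6.53%. *SSP1*, of the leading edge of the prospore membrane, was at 3.39%, 8.41% and 11.1%, then at 4.33%, 9.13% and 21.3%. For all 3 genes the stationary phase array with both deletions was the highest. *LDS2* was 3.85-fold and 2.56-fold higher in *ccr4Δ* and *RMR1* 2.38-fold and 2.82-fold. Of the list of 24 measured meiosis genes *SSP1* was the single member.

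The Ty3 retrotransposon was represented by both of its measured probes. YGR109W-A, of the Ty3 Gag protein, had levels of 4.44% in wild-type, 60.2% in *ccr4Δ* and 14.3% in *ccr4Δ pbp1Δ* in log phase, and of 8.93%, 79.6% and 33.2% in stationary phase. YIL082W-A was at 23.4%, 66.3% and 28.9%, then at 28.9%, 68.4% and 47.6%. In both phases *ccr4Δ* was the highest strain in each of the 2 probes. Copies of Ty3 are nearly identical, and its transcription is known to be induced by mating pheromone, so the difference in mating type applies here too.

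In the 4 genes of sulfur, purine and amino acid metabolism the array with both deletions stood nearer to wild-type than to *ccr4Δ* in both phases. These genes were grouped after their values were seen, so nothing is read from the shared position. *ADE17*, of late purine synthesis, had levels of 37.0% in wild-type, 125% in *ccr4Δ* and 36.9% in *ccr4Δ pbp1Δ* in log phase, and of 24.3%, 105% and 30.4% in stationary phase. It was the single member of 16 purine synthesis genes, whose medians were 0.07 and 0.01, and the wild-type strain is listed with a further *ADE2* copy. *STR2*, cystathionine γ-synthase, was at 20.0%, 48.1% and 23.3%, then at 58.9%, 197% and 88.7%. *SRY1*, hydroxyaspartate dehydratase, was at 27.0%, 69.6% and 27.4%, then at 43.1%, 100.5% and 53.4%. *SUL1*, a sulfate permease, was at 0.552%, 1.32% and 0.770%, then at 1.88%, 6.22% and 2.55%. Of the 30 measured sulfur genes *STR2* and *SUL1* were members. In *ccr4Δ* over wild-type 2 of the 30 passed 2-fold in log and 17 in stationary phase, with list medians of -0.16 and 1.18.

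The other 31 genes share no single role. *ECM13* had levels of 5.55% in wild-type, 38.1% in *ccr4Δ* and 18.7% in *ccr4Δ pbp1Δ* in log phase and of 508%, 1569% and 686% in stationary phase, so growth phase changed it more than genotype did. YHR213W, a fragment related to *FLO1*, was at 1.79%, 12.8% and 5.58%, then at 3.09%, 19.9% and 9.40%, and the flocculin gene *FLO1* itself at 3.82%, 14.7% and 9.59%, then at 11.02%, 26.0% and 18.9%. *PHO92*, a reader of methylated adenosine in mRNA, was at 1.81%, 7.93% and 3.76%, then at 4.11%, 16.9% and 15.3%. *FRE7*, a metalloreductase, was at 8.77%, 24.2% and 12.1% and then at 17.4%, 61.5% and 221%. In *FRE7* the array with both deletions was below *ccr4Δ* in log phase and 3.60-fold above it in stationary phase. *TMT1*, *trans*-aconitate methyltransferase, was at 8.40%, 23.3% and 6.72%, then at 8.93%, 70.0% and 35.6%. *RNR3*, the DNA damage-inducible subunit of ribonucleotide reductase, was at 4.27%, 13.9% and 10.4%, then at 8.44%, 19.5% and 16.6%, and was the member from 16 DNA damage genes. *HST4*, a deacetylase of the Sir2 family, was 2.18-fold and 3.74-fold higher in *ccr4Δ*, and *AZR1*, a multidrug transporter, 2.33-fold and 2.43-fold.

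Over all 33 gene lists, 40 of the 99 genes were in a list and 59 in none, and 14 lists had no member. Besides those named above, lists without a member included 26 heat shock genes, 17 phosphate genes, 55 amino acid synthesis genes, 22 nitrogen-repressed genes and 29 seripauperin genes. With 1.72% of all measured genes as members, nothing is read from a list without one. A list could also pass in 1 phase only. Of 26 heat shock genes 5 passed 2-fold in log and 11 in stationary phase. Of 13 hexose transporter genes 6 passed in log and 1 in stationary phase. A further 36 genes had ratios past both limits and were left out because they were not well above background on a wild-type array, among them *AGA2*, *MFA2*, *HMRA1*, *PRM3*, *PRM6*, *HXT13*, *HXT15*, *HXT16* and *HXT17*.

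The second deletion was then compared with each of the other strains. Ratios of *ccr4Δ pbp1Δ* over wild-type share the wild-type arrays with the rule. Genes chosen for a low wild-type signal tend to read higher in any other array. Ratios over *ccr4Δ* share the *ccr4Δ* arrays, where genes chosen for a high *ccr4Δ* signal tend to read lower in any other array. Counts of both kinds are therefore a description. In *ccr4Δ pbp1Δ* over wild-type, 38 of the 99 genes were at least 2-fold higher in log phase beside 2.19% of all genes, 73 in stationary phase beside 12.7%, and 30 in both beside 0.733%. The median of these log2 ratios was 0.85 in log and 1.48 in stationary phase, beside -0.08 and -0.10 over all genes. With *ACT1* as the reference, 70 of the 99 genes stayed above wild-type in *ccr4Δ* in stationary phase and 48 in *ccr4Δ pbp1Δ*, including 8 and 7 of the 10 cell cycle genes and 5 and 1 of the 6 pheromone response genes. Without the 11 mating genes, 30 of 88 were at least 2-fold higher in log and 63 in stationary phase. The level of *ccr4Δ pbp1Δ* lay between those of wild-type and *ccr4Δ* for 89 genes in log phase beside 57.6% of all genes, for 68 in stationary phase beside 40.4% and for 62 in both beside 24.3%. Choosing genes that are high in *ccr4Δ* and low in wild-type favours such a position, so nothing is read from these counts. Only *CDC26*, *KIN3* and *SSP1* were at or above *ccr4Δ* in both phases. At or below wild-type in a phase were *ADE17*, *AZR1*, *FMP16*, *ISU1*, *RTC3*, *TMT1* and the mitochondrial frame Q0297.

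Against *ccr4Δ*, 23 of the 99 genes were at least 2-fold lower in log phase beside 2.71% of all genes, and 17 in stationary phase beside 3.69%. Only *FRE7*, *GAS4* and *SSP1* were at least 2-fold higher in stationary phase, where 1.67% of all genes were. The median was -0.61 in log and -0.27 in stationary phase, beside 0.01 and 0.04 over all genes. Lower by at least 2-fold in both phases were *ADE17*, *AGA1*, *ECM13*, *FIG1*, *STR2*, YGR109W-A, YHR213W and YPL264C. The group medians were lowest in log phase for Ty3 (-1.64), the pheromone response (-1.37) and the sulfur, purine and amino acid genes (-1.20). They were nearest to 0 for the cell cycle (-0.14) and the a-specific genes (-0.18). In stationary phase the a-specific genes had the lowest median, at -1.36, and the sulfur, purine and amino acid genes followed at -1.22. The medians of the thiamine genes (0.01) and of the meiosis and sporulation genes (0.44) were then at or above 0. The mitochondrial genes went from -0.55 in log phase to -0.20 in stationary phase. All these group medians cover members only. Over whole lists, the log phase medians were -0.25 for 30 pheromone response genes, -0.19 for 30 sulfur genes and -0.36 for 16 purine genes. In stationary phase those list medians were -0.19, -1.45 and -0.05.

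**Figure D3:**
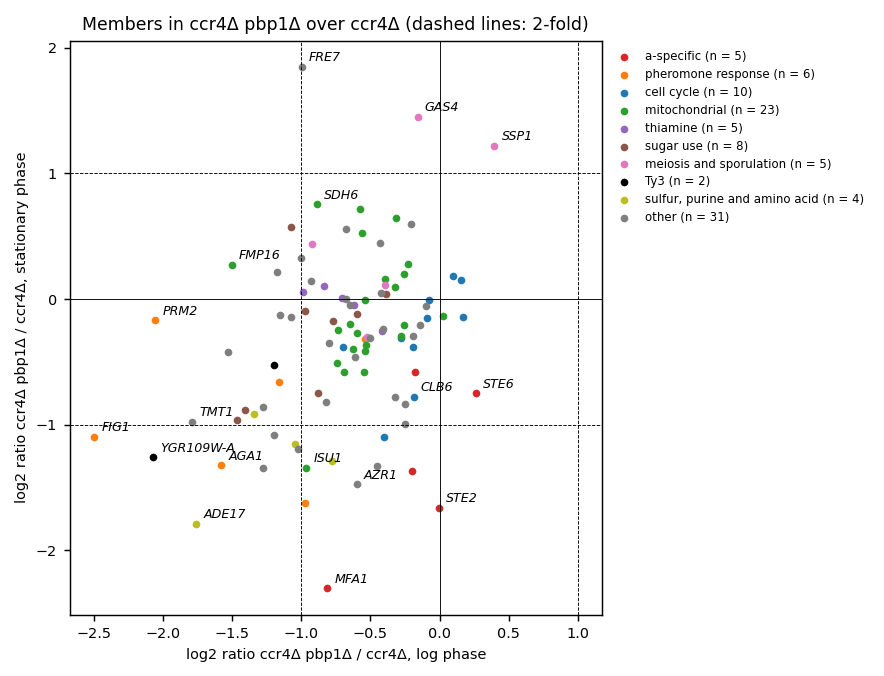
Log2 ratio of *ccr4Δ pbp1Δ* over *ccr4Δ* in log phase (x axis) and stationary phase (y axis), 1 point per gene, coloured by role. Most points lie left of 0, as 93 genes were below *ccr4Δ* in log and 71 in stationary phase; the a-specific genes lie near 0 in log phase and low in stationary phase.

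The change between growth phases in *ccr4Δ pbp1Δ* uses no array of the rule. There 43 of the 99 genes (43.4%) were at least 2-fold higher in stationary phase than in log phase, beside 23.9% of all genes, and 17 (17.2%) at least 2-fold lower, beside 20.0%. The median log2 change was 0.95, beside 0.12 over all genes. *FMP16* was 24.9-fold higher in stationary phase, *FRE7* 18.3-fold, *SDH6* 17.2-fold and *ECM13* 36.7-fold. All 5 a-specific genes and all 3 B-type cyclin genes were among the 17 lower ones, with *CLB6* 30.0-fold, *STE2* 14.6-fold and *BAR1* 10.8-fold lower. The group medians ran from -2.20 for the a-specific genes and -1.36 for the cell cycle genes to 1.29 for sugar use, 1.34 for sulfur, purine and amino acid metabolism and 1.58 for the other genes.

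The same direction was read in the other strains for part of the genes. These arrays are those of the rule, so the counts are a description. In wild-type 33 were at least 2-fold higher in stationary phase beside 22.7% of all genes, and 12 at least 2-fold lower beside 20.6%. In *ccr4Δ* 33 were higher beside 17.6%, and 15 lower beside 16.4%. With *ACT1* as the reference the counts were 91 and 1 in wild-type and 60 and 4 in *ccr4Δ*. The median log2 change over all genes was then 2.40 in wild-type and 0.76 in *ccr4Δ*, so these counts say little about the members. Higher in all 3 strains were 23 genes, beside 11.5% of all genes, among them *ATG33*, a mitophagy gene, *ATG45*, *CBP4*, *PKP1*, *SDH6*, *STR2*, *SUL1* and *THI2*. Lower in all 3 were 8 genes, beside 10.5%: *AGA1*, *ALK1*, *AZR1*, *CLB1*, *CLB4*, *CLB6*, *KIN3* and *PRM1*. For *ATG45* the levels were 26.3%, 94.3% and 58.9% in log and 245%, 617% and 908% in stationary phase. The a-specific genes differed between strains: *MFA1* was 8.82-fold higher in stationary phase in wild-type, where its log phase level was lowest, and 1.64-fold and 4.60-fold lower in *ccr4Δ* and *ccr4Δ pbp1Δ*. The wild-type change spans 2 slides.

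**Figure D4:**
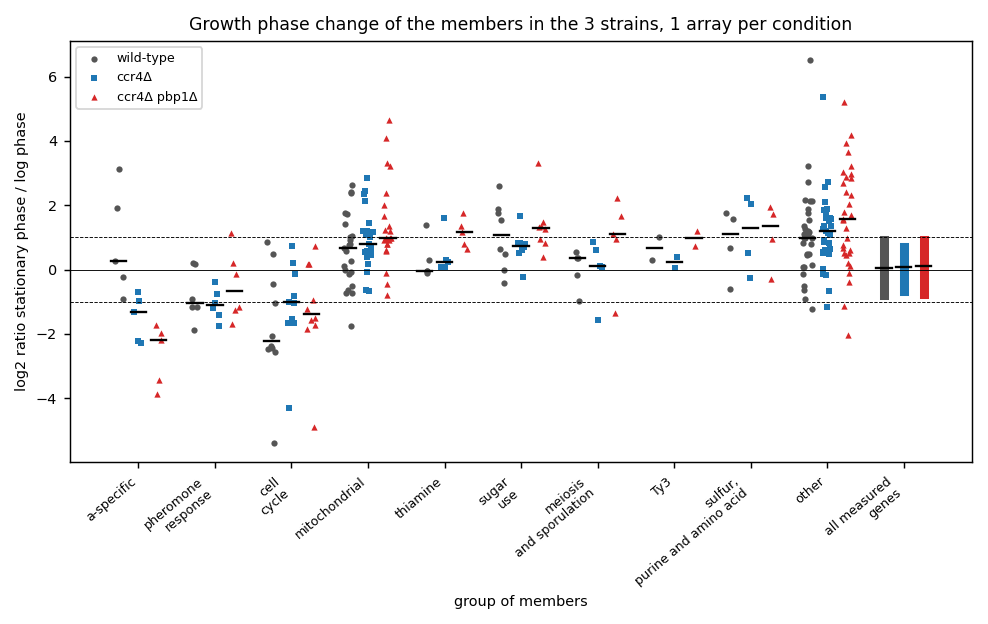
Log2 ratio of stationary over log phase in wild-type, *ccr4Δ* and *ccr4Δ pbp1Δ*, 1 point per gene and strain, by role; black bars are group medians and the bar for all genes is the interquartile range. The a-specific and cell cycle genes lie below 0 in *ccr4Δ pbp1Δ*, with medians of -2.20 and -1.36, and the other groups except the pheromone response have medians above 0.

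By position, 29 of the 96 genes found in RefSeq lay within 25 genes of a chromosome end (30.2%), beside 742 of 5508 measured genes (13.5%). They include the 4 *THI5* family copies, both maltase genes, *SUC2*, *HXT9*, *FLO1* and YHR213W, which belong to families found near chromosome ends. None of 29 seripauperin genes and none of 11 genes of the COS list, which also lie there, was a member. With 3.91% of the measured genes near an end as members, nothing is read from these counts. The Y′ helicase entry of that list matched no gene by name, so Y′ genes were not examined. The share of measured genes that were members ran from 0.749% on chromosome V to 4.02% on chromosome IX, and none of the 15 genes of the mitochondrial genome that matched RefSeq was. Q0297, which did not match, was a member. Neighbouring pairs were YCL049C and *SPS22* on chromosome III, *MFA1* and *MRPL28* on chromosome IV, and *CLB1* with *CLB6* and *CLB6* with YGR109W-A on chromosome VII. *MRPL28* was 2.42-fold and 3.01-fold higher in *ccr4Δ*, beside 639-fold and 44.3-fold for *MFA1*.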

How the data were processed

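Total RNA (Cy3, 1 colour) was hybridised to 6 Agilent arrays. The authors deposited spot intensities from Feature Extraction 11.0.1.1, background-subtracted within the array, and a table of processed intensities whose 6 columns hold the same sorted values, as quantile normalization gives. From the deposited intensities, control spots and outlier flags were dropped, the processed signal was put on the log2 scale, each array's 75th percentile was subtracted, and spots and probes were averaged per systematic name. A gene was measured when all its spots were well above background. Depth does not apply to arrays: with 1 array per condition, precision is limited to the spread of spots. Ratios were counted at a 2-fold limit with no test, and the counting was checked on simulated data. Symbols and gene order came from RefSeq assembly GCF_000146045.2, whereas the array is annotated on an earlier build, so no coordinate is given.

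The members and lists were chosen with earlier results of these data known. The groups by role, the thiamine and maltose lists and the distance of 25 genes were chosen after the values were seen. Named by rule were the 12 genes with the highest smaller ratio, the 5 lowest and 5 highest by *ccr4Δ pbp1Δ* over *ccr4Δ*, members of lists, neighbouring members and the 3 genes on either side of the limit; others were named after their values were seen. No sequence is shown. R 4.3.3, limma 3.58.1, Python 3.11.15, pandas 2.3.3 and numpy 2.4.6 were used. Alternatives were quantile normalization, scaling by the median, no scaling, the authors' own table, normexp (offset 50, median signal), no filter, the brightest probe, limits of 1.5-fold and 3-fold, each phase alone, and the mating genes left out. *ACT1* as the reference, every spot past the limit and the *ccr4Δ pbp1Δ* arrays in place of *ccr4Δ* were also tried.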

Additional observations from a re-analysis of the deposited data

Results flagged for a closer look

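The change of 2 a-specific genes between growth phases went opposite ways in strains of different labels; none of these differences was tested, with 1 array per condition. *MFA1* was higher in stationary than in log phase in wild-type, with a log2 change of 3.14, and lower in *ccr4Δ pbp1Δ*, with -2.20, a difference of -5.34. *ASG7* changed by 1.93 in wild-type, by -1.31 in *ccr4Δ* and by -1.72 in *ccr4Δ pbp1Δ*, which gives differences of -3.24 and -3.64. In wild-type, listed as *MATα*, both genes had levels under 1% of the 75th percentile in log phase. Their wild-type log phase values come from the array that was alone on its slide.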

How the results depend on the processing

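No paired analysis was possible because the labels give no replicate numbers and each condition has 1 array. In place of 99 genes, 97 passed both limits with median scaling (88 of them members), 102 with quantile normalization (88 members), 102 with the authors' values (87 members), 83 with normexp (82 members), 88 without the mating genes, 87 with every spot past the limit and 135 without the filter. The number moved further to 63 with no scaling (all members), 27 with *ACT1* as the reference (18 members), 360 at a 1.5-fold limit, 27 at a 3-fold limit, 321 from log phase alone, 694 from stationary phase alone and 42 with the *ccr4Δ pbp1Δ* arrays in place of *ccr4Δ* (30 members). The median over all genes of stationary phase *ccr4Δ* over wild-type was -0.48 with no scaling, and with *ACT1* it was 0.27 in log and -1.40 in stationary phase; *ACT1* itself was 2.50-fold higher in *ccr4Δ* in stationary phase.

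Of *ccr4Δ pbp1Δ* over wild-type, the count of 38 in log phase became 71 with *ACT1*, 73 at 1.5-fold and 12 at 3-fold, and that of 73 in stationary phase became 9 with *ACT1* and 44 at 3-fold. Over *ccr4Δ*, 23 lower in log phase became 53 at 1.5-fold and 5 at 3-fold, and 17 in stationary phase became 30 and 4. The 43 genes higher in stationary phase in *ccr4Δ pbp1Δ* became 31 with no scaling, 38 with quantile normalization, 38 with the authors' values and 65 with *ACT1*. With *ACT1* as the reference the median log2 of this change over all genes was 0.56. For *ccr4Δ pbp1Δ* over wild-type the median over all genes was 0.31 in log and -1.62 in stationary phase.

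With *ACT1* as the reference, 29 of the 99 genes turned below wild-type in *ccr4Δ* and 48 in *ccr4Δ pbp1Δ* in stationary phase. Only genes named by rule were followed singly, and 25 of their 300 values changed direction. In stationary phase *ccr4Δ pbp1Δ* over wild-type these were *FIG1* (-0.19), *AGA1* (-0.17), *PRM1* (-0.33), *DBF2* (-0.026), *MRPL28* (-0.35), *PRM2* (-0.47), *TIM12* (-0.51), *MRPL4* (-0.073), *RSM7* (-0.064), *MRPL6* (-0.19), *CYT2* (-0.35) and YLL065W (-0.32). In stationary phase *ccr4Δ* over wild-type they were YIL082W-A (-0.079), *FLO1* (-0.084), *AZR1* (-0.040), *PRM2* (-0.10), *CBP4* (-0.11), *RNR3* (-0.11), *ISU1* (-0.14), *TIM12* (-0.18), *SSP1* (-0.25), *SIC1* (-0.29), *RSM7* (-0.14), *MRPL6* (-0.089) and *CLB4* (-0.30). In *ccr4Δ* all 99 stayed above wild-type under the other scalings tried. With the 75th percentile as the reference, *ACT1* had a stationary phase log2 ratio to wild-type of 1.32 in *ccr4Δ* and 1.52 in *ccr4Δ pbp1Δ*. Taking *ACT1* as the reference subtracts that ratio, so a gene with a smaller ratio falls below wild-type. Why *ACT1* differed between the strains was not tested.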
